A study of Mus musculus with 6 samples.

Results

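Of the 49993 genes in the deposited table, 8 are described here: the initiator caspase genes Casp9, Casp8 and Casp2, the effector caspase gene Casp6, the apoptosome genes Apaf1 and Cycs, the caspase inhibitor gene Xiap and its antagonist gene Diablo. They were chosen by gene symbol, and each symbol matched 1 row. Expression was measured by RNA-seq in 3 libraries of mouse blastocysts cultured from the zygote (in vitro) and 3 libraries of blastocysts that developed in the mother (in vivo). Mothers of both groups were superovulated with PMSG (10 IU) and hCG (10 IU, 48 h after PMSG) before natural mating. Zygotes for culture were taken at 19 to 21 h after hCG, freed of cumulus cells and grown in KSOM medium at 37 °C under 5% CO2, and in vivo embryos were obtained on day 3.5 by flushing the uterus. The sample descriptions name a single inner cell mass per library, the listed cell type is embryonic stem cell, and the design text names blastocysts. The labels give neither the strain, nor the age of the cultured embryos at collection, nor whether embryos had separate mothers; the p-values below therefore cover the spread among these libraries alone, which may be partly technical.

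Caspases are proteases held as inactive precursors. In the mitochondrial route, cytochrome c that leaves the mitochondria binds Apaf1, which assembles into the apoptosome and activates caspase-9. In the death receptor route, caspase-8 is activated at Fas and related receptors. Both routes lead to effector caspases. Xiap blocks some active caspases but not all, and Diablo, also called Smac, leaves the mitochondria with cytochrome c and displaces Xiap. Mouse blastocysts normally clear some cells by apoptosis, mostly in the inner cell mass. These proteins are regulated after translation, and RNA levels do not measure caspase activity.

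Libraries held 6918288 to 12735551 counts in vitro and 9174789 to 17643429 counts in vivo. Ribosomal RNA genes took 37.8% to 42.1% of the counts in vitro and 18.4% to 47.8% in vivo, and mitochondrial genes took 6.76% to 9.41% in vitro and 10.9% to 15.3% in vivo. Spearman correlations across genes were 0.789 to 0.848 among the in vitro libraries. In the in vivo group replicate 3 stood apart, at 0.786 and 0.793 with the others, which had 0.942 with each other. In vitro replicate 2 had 7494 Xist counts and 1 count of 4 Y-linked genes, and each of the others had at least 1139 Y-linked counts. In vivo replicate 3 had 341 Xist counts beside 1693 Y-linked counts. Xist counts were 56 and 16 in in vitro replicates 1 and 3, and 8 and 25 in in vivo replicates 1 and 2. All 8 trophectoderm markers had counts in each library, and their summed level was 1244 to 2278 CPM in vitro and 673 to 1382 CPM in vivo. The 8 primitive endoderm markers summed to 626 to 892 CPM in vitro and 281 to 416 CPM in vivo, without overlap, and the 8 epiblast markers to 520 to 1066 CPM in vitro and 666 to 794 CPM in vivo. Of the 6 cumulus cell markers, 5 were at 0 in each library, and the sixth, Foxl2, had 2 counts in 1 in vitro library. Leukocyte markers summed to at most 3.37 CPM. The 6 uterine epithelium markers, 2 of them at 0 throughout, summed to 37.1, 86.8 and 46.8 CPM in vitro and 69.2, 19.3 and 29.8 CPM in vivo, and of these Muc1 did not overlap, at 0.131 to 2.65 CPM in vitro and 4.65 to 15.5 CPM in vivo. The part of these differences in the results below was not tested. In such bulk libraries fewer cells of a type and less RNA per cell cannot be told apart.

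The sequences before a listed transcript start of 4 members are shown to set Casp8, which had no counts, beside members with counts. They are the stretches of RefSeq promoter windows (GRCm38.p6) that lie in no exon of the gene, read 5′ to 3′ on the strand of the gene. The windows reach 250 bases before to 50 bases after a transcript start. For Casp8 that start lies inside the gene, whose row begins at 58795233, so its stretch is not upstream of all its exons. Capitals mark matches on either strand to the GC box GGGCGG, the CCAAT box CCAAT, the core GCGCANGC bound by the respiratory factor NRF1, and the cyclic AMP response element TGACGTCA. No 2 of these motifs overlap in the lines shown.
Casp2, chr6:42264735-42264901, plus strand: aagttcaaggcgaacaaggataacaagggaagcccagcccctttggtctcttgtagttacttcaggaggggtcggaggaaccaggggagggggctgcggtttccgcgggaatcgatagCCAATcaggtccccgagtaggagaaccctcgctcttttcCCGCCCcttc
Casp6, chr3:129901165-129901414, plus strand: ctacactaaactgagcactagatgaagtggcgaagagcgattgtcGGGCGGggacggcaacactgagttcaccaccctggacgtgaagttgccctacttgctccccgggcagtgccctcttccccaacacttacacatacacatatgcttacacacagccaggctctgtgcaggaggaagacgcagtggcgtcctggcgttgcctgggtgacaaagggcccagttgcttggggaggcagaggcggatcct
Cycs, chr6:50566570-50566819, minus strand: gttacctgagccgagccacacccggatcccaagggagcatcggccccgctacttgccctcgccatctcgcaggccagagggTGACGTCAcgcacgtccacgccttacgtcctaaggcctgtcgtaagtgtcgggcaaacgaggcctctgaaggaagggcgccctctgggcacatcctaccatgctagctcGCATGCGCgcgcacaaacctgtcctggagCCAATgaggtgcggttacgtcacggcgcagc
Casp8, chr1:58802252-58802501, plus strand: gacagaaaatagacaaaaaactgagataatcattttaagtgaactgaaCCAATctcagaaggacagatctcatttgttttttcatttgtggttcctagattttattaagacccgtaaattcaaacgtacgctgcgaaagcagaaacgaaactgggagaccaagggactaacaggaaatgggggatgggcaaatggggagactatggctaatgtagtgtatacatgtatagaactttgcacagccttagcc

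Over windows of 300 bases, the Casp8 window, around that start inside the gene, held 5 CpG sites and 42% G and C. The sequence before the first exon of the Casp8 row was not examined. What follows on Casp8 therefore covers this window alone. The windows of Casp2, Casp6 and Cycs held 26, 16 and 32 CpG sites, that of Apaf1 held 46, that of Diablo 42 and that of Casp9 28. The observed over expected CpG ratio was 0.380 for Casp8, a value that 49.7% of 32851 mouse promoter windows did not exceed, and 1.14 for Casp9, 1.12 for Apaf1 and 1.10 for Diablo. It was 0.566 for Casp6. Xiap has 3 windows, at ratios of 0.706, 0.276 and 0.198. Of 12802 genes whose windows all have a ratio at or below that of Casp8, 61.7% had 0 counts in each of the 6 libraries, against 38.9% of all 27023 genes with a window. Xiap, with 2 of its 3 windows below the ratio of Casp8 and 1 above, is not among those 12802 genes. The part of the CpG ratio in the 0 counts of Casp8 was not tested. The GC box was found in the windows of 7 of the 8 members, all but Casp8, and in 35.7% of all windows. The NRF1 core was found in the windows of Apaf1, Cycs, Casp2 and Diablo and in 9.95% of all windows. The cyclic AMP response element was found in the Cycs window alone among the members and in 1.79% of all windows, and the CCAAT box in those of Cycs, Casp8, Casp2 and Diablo and in 37.4% of all. An E-box, CACGTG, was in none of the members' windows and in 7.15% of all, and a TATA box, TATAAA, was in 1 of the 3 Xiap windows and in 13.6% of all. These matches describe letters and do not show binding.

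Compared per length of transcript, the members spanned a wide range. CPM, the count relative to library size after TMM scaling, was divided by the length of the exons in kilobases. Casp6 had the highest mean level over the 6 libraries, at 38.7 ± 14.3 CPM per kilobase (SD, n = 6), followed by Cycs at 25.1 ± 10.4 and Diablo at 17.9 ± 8.36 CPM per kilobase. Casp2 averaged 5.85 ± 4.43, Xiap 3.56 ± 0.648, Casp9 1.76 ± 1.11 and Apaf1 1.74 ± 0.869 CPM per kilobase. Each pair of neighbours in this order overlapped over the libraries, and the order differed between groups. Casp6 and Cycs averaged 27.2 and 27.6 CPM per kilobase in vitro and 50.2 and 22.6 in vivo, Casp2 and Xiap 9.07 and 3.88 in vitro and 2.63 and 3.25 in vivo, and Casp9 and Apaf1 1.46 and 2.18 in vitro and 2.06 and 1.30 in vivo. The lowest value of Casp6, Cycs and Diablo in any library, 10.96 CPM per kilobase, was above the highest of Xiap, Casp9 and Apaf1, 4.45 CPM per kilobase. The level of Xiap per length counts an exon of 14341 bases that is part of a total of 22194 bases, and it is understated if that exon was little transcribed.

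**Figure D1:**
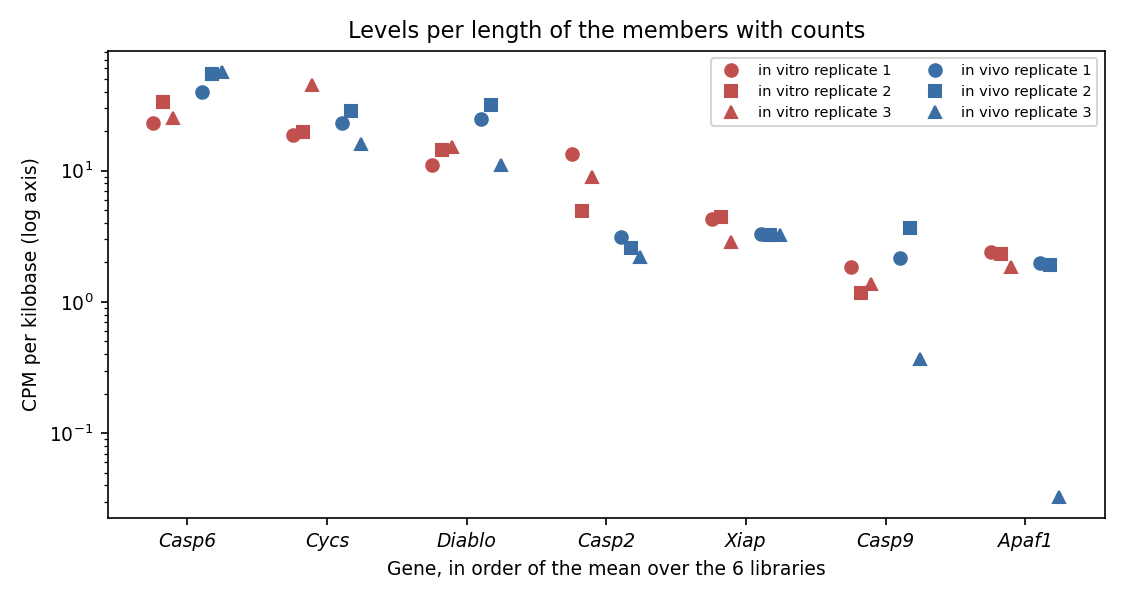
CPM per kilobase (log axis) of the 7 members with counts, in each in vitro library (red) and in vivo library (blue), in order of the mean over the libraries. Casp6, Cycs and Diablo lie above Xiap, Casp9 and Apaf1 in every library, and in vivo replicate 3 lies far below the others for Apaf1. Casp8, with 0 counts, cannot be drawn on this axis.

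In the comparison of culture with development in the mother, 7 of the 8 members passed the filter on low counts. None of the 7 passed the quasi-likelihood test of edgeR with Benjamini-Hochberg adjustment at 0.05, as did 0% of all 14301 genes tested. At an unadjusted p below 0.05 stood 2 of the 7, Casp2 higher and Casp6 lower in vitro, where 10.2% of all genes tested stood (5.11% higher and 5.08% lower). The same 2 were the members whose groups did not overlap, which held for 19.3% of all genes tested (9.27% with higher and 10% with lower values in vitro). DESeq2, the tool in the submitters' processing notes, called 1 member, Casp2, and 2.81% of its genes (2.61% of those that edgeR also tested), and limma-voom with quality weights called 0 members at an adjusted p below 0.05 (3 of them, Casp2, Casp6 and Diablo, at an unadjusted one, as did 19.3% of all genes) and 0.713% of its genes at the adjusted one. Of the 7 log2 fold changes (in vitro over in vivo), 4 were positive and 3 negative, with a median of 0.25, while 49.8% of all genes tested were positive.

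**Figure D2:**
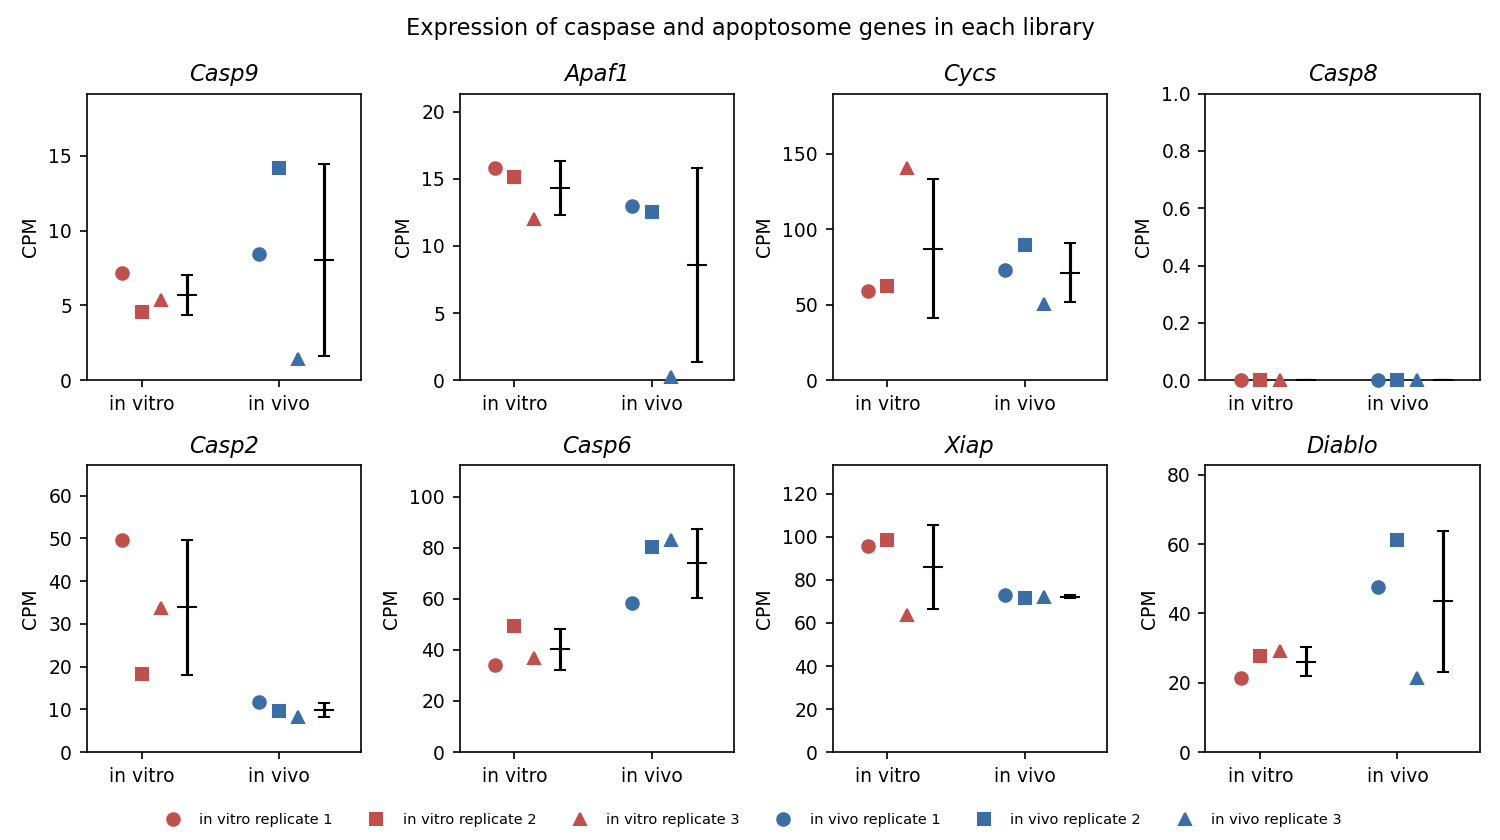
CPM of each member in the in vitro libraries (red, left) and the in vivo libraries (blue, right), with the mean and SD of each group in black (n = 3 each) and axes from 0. Casp2 is higher and Casp6 lower in every in vitro library than in any in vivo library, Casp8 is at 0 throughout, and in vivo replicate 3 is lowest for Casp9, Apaf1, Cycs and Casp2.

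The apoptosome is built by Apaf1 and caspase-9. Apaf1, which spans 90989311 to 91082743 on chromosome 10, minus strand (GRCm38, as below), had 90, 206 and 92 counts in in vitro replicates 1, 2 and 3, and 165, 156 and 3 counts in in vivo replicates 1, 2 and 3. These are 15.8, 15.1 and 12.03 CPM in vitro and 12.9, 12.5 and 0.216 CPM in vivo. In 5 libraries Apaf1 lay within a narrow range, and in vivo replicate 3 was nearly without it. That library had the most counts of all, but also the highest share of ribosomal RNA (47.8%) and the fewest genes detected. It had 16977 genes with counts, against 16996 to 20867 in the others, and the part of this in its Apaf1 value was not tested. The log2 fold change of Apaf1 was 0.74 ± 1.05 (SE, edgeR adjusted p = 0.858), and 0.18 ± 0.50 without in vivo replicate 3.

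Casp9, the initiator caspase recruited by Apaf1, lies on the plus strand of chromosome 4 at 141793612 to 141815978. It had 41, 62 and 41 counts in vitro (7.20, 4.56 and 5.36 CPM) and 108, 177 and 20 counts in vivo (8.47, 14.2 and 1.44 CPM). The in vitro libraries lay between in vivo replicate 3 and the other in vivo libraries, so the groups overlapped. The difference on the log2 scale was −0.49 ± 0.90 (adjusted p = 0.894, edgeR). Leaving out in vivo replicate 3 gave −0.98 ± 0.66, and leaving out in vivo replicate 2 gave 0.19 ± 1.20, so its sign rested on a single library. Of its exons, 102 bases are shared with Cela2a on the other strand, and reads there cannot be assigned without strand. Cela2a had 1, 0 and 0 counts in vitro and 8, 43 and 49 counts in vivo, in in vivo replicate 3 more than Casp9 itself; its part in the Casp9 counts was not tested.

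Cycs encodes somatic cytochrome c, a carrier of electrons in respiration and the trigger of apoptosome assembly. The gene spans 50562563 to 50566569 on chromosome 6, minus strand. Its level was 58.8, 62.2 and 140.5 CPM in vitro and 73.2, 89.8 and 50.6 CPM in vivo, from 335 to 1075 counts in vitro and 704 to 1120 counts in vivo. In vitro replicate 3 alone was above all in vivo libraries. Its log2 fold change was 0.29 ± 0.43 (adjusted p = 0.863, edgeR), and −0.23 ± 0.37 without in vitro replicate 3. Scaling by library totals without TMM also made it negative (−0.12), and put the median of all genes at −0.31. The named pseudogene copies had few counts: Cycs-ps2 had 49 to 87 in vitro and 70 to 80 in vivo, Cycs-ps1 had 19 in 1 in vitro library, and Cycs-ps3 had at most 4, and reads could be split among near-identical copies.

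The ratio of Apaf1 to Casp9 separated the groups as a description. Its log2 value was 1.11, 1.69 and 1.14 in vitro and 0.60, −0.18 and −2.03 in vivo, computed with a prior count of 2. Apaf1 CPM exceeded that of Casp9 in all 3 in vitro libraries and in in vivo replicate 1. The value of in vivo replicate 3 rests on 3 Apaf1 counts. The ratio of Cycs to Apaf1 was 1.88, 2.03 and 3.53 in vitro and 2.48, 2.83 and 6.998 in vivo on the log2 scale, and these overlapped. No test was made of these ratios, which are of CPM without regard to length. Neither Apaf1 nor Casp9 alone separated the groups. The share of gene pairs whose ratio separates the groups was not computed, and for single genes tested it was 19.3%. The exon overlap of Casp9 with Cela2a, given above, also limits the ratio of Apaf1 to Casp9.

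Casp8 is the initiator caspase of the death receptors. Its row, at 58795233 to 58847503 on the plus strand of chromosome 1, held 0 counts in all 3 in vitro and all 3 in vivo libraries. A count of 0 allows up to 0.220 to 0.527 CPM in vitro and 0.216 to 0.240 CPM in vivo (3 counts, counting error only). No Casp8 RNA was thus counted in either group, and no comparison could be made. The sources used here name no counter or counting settings, and their part in this 0 was not tested. Its exons overlap no exon of another gene in the table. In all, 22111 genes, 44.2% of the table, had 0 counts in each library.

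Other genes of the death receptor route were present in part. Fas, the receptor, and Fasl, its ligand, had 0 counts in all 6 libraries, and Tnfrsf1a, a TNF receptor, had 4 to 21 counts in vitro and 0 to 7 in vivo. Tnfrsf10b, another death receptor, was at 10.0, 16.5 and 2.88 CPM in vitro and 6.74, 16.2 and 3.24 CPM in vivo. The adaptor Fadd, which recruits caspase-8, was at 8.43, 4.11 and 3.40 CPM in vitro and 16.7, 5.93 and 1.22 CPM in vivo. Cflar, which encodes the caspase-8 homologue FLIP and lies on chromosome 1 as Casp8 does, was at 4.22, 11.6 and 11.1 CPM in vitro and 10.2, 15.95 and 2.23 CPM in vivo. Of the 11 genes of this list, 5 were tested, 2 with a positive and 3 with a negative log2 fold change, and 0 had an unadjusted p below 0.05 by edgeR. The adaptor Tradd had −1.004 ± 0.86 and the kinase gene Ripk1 0.71 ± 1.496, with adjusted p-values of 0.740 and 0.909 (edgeR).

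Casp2 was the member with the smallest p. Caspase-2 is an initiator activated in the PIDDosome, a complex that responds to DNA damage and to extra centrosomes. The gene lies on the plus strand of chromosome 6 at 42264902 to 42282508. It had 283, 248 and 257 counts in vitro and 148, 119 and 115 counts in vivo. On the CPM scale it was at 49.7, 18.2 and 33.6 in vitro and at 11.6, 9.54 and 8.27 in vivo. Each in vitro library was above each in vivo library, and the in vitro libraries differed more among themselves. The means were 33.8 ± 15.7 CPM in vitro and 9.80 ± 1.69 CPM in vivo (SD, n = 3 each), a fold of 3.44 and a log2 fold change of 1.78 ± 0.51 (SE). By edgeR the unadjusted p was 0.00653 and the adjusted p 0.361, so the call was not made. DESeq2 gave 1.80 ± 0.54 with an adjusted p of 0.0378, and limma-voom 1.42 with an adjusted p of 0.124.

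The DESeq2 call of Casp2 depended on single libraries. It held without in vitro replicate 2 (adjusted p = 0.00517). It was lost without in vitro replicate 1 (0.249), in vitro replicate 3 (0.104), in vivo replicate 1 (0.0980), in vivo replicate 2 (0.213) and in vivo replicate 3 (0.0639). The direction was the same in all 23 alternatives, with log2 fold changes of 1.36 to 2.11. The sum of the primitive endoderm markers, given above, was also higher in each in vitro library. Of the single markers, Pdgfra and Sox17 overlapped between the groups and the others did not. The mitochondrial share was lower in each in vitro library. The part of the markers and of this share in the Casp2 difference was not tested. The partners of caspase-2 in the PIDDosome, the scaffold Pidd1 and the adaptor Cradd, overlapped between groups. Pidd1 was at 11.1, 10.1 and 2.09 CPM in vitro and 5.96, 8.66 and 33.4 CPM in vivo (log2 fold change −1.05 ± 0.87), and Cradd at 1.76, 1.62 and 8.10 CPM in vitro and 5.25, 2.73 and 0.791 CPM in vivo (0.39 ± 1.17).

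Casp6, an effector caspase that cleaves lamins, was lower in each in vitro library than in any in vivo library. The gene spans 129901415 to 129914112 on the plus strand of chromosome 3. It had 195, 673 and 282 counts in vitro and 745, 1002 and 1157 counts in vivo, or 34.2, 49.5 and 36.9 CPM in vitro and 58.4, 80.3 and 83.2 CPM in vivo. The gap between the groups, 49.5 to 58.4 CPM, was narrower than the range of the libraries within either group. The means were 40.2 ± 8.13 CPM in vitro and 74.0 ± 13.5 CPM in vivo (SD, n = 3 each), a fold of 0.544. The log2 fold change was −0.88 ± 0.34 with an unadjusted p of 0.0296 and an adjusted p of 0.442 by edgeR, and the adjusted p was 0.227 by DESeq2 and 0.236 by limma-voom. It was negative in all 23 alternatives, at −1.13 to −0.75, and passed none of them. Of its exons, 17 bases overlap Gm46825 on the other strand, which had 0 counts in vitro and 0 to 7 in vivo.

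The inflammatory caspase genes Casp1 and Casp4 and the keratinocyte caspase gene Casp14 had 0 counts in all libraries, and Casp12 had 1.

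Among inhibitors, Xiap differed little. The gene lies on the plus strand of the X chromosome at 42059613 to 42109664. It was at 95.5, 98.8 and 63.8 CPM in vitro and at 72.9, 71.7 and 72.0 CPM in vivo, from 488 to 1344 counts in vitro and 895 to 1001 in vivo. The in vitro libraries (86.0 ± 19.3 CPM) lay on both sides of the in vivo libraries, which were nearly equal (72.2 ± 0.590 CPM; SD, n = 3 each). The log2 fold change was 0.25 ± 0.32 (adjusted p = 0.831, edgeR), and −0.049 with scaling by totals without TMM. Without in vitro replicate 2, the library with high Xist and without Y-linked expression, it was 0.13 ± 0.36. Of the other 9 genes with IAP repeats, 4 were tested, 1 positive and 3 negative, and 0 had an unadjusted p below 0.05 by edgeR. Birc5, survivin, which also acts in chromosome segregation, was at 98.4, 139 and 130 CPM in vitro and 209.7, 186 and 96.1 CPM in vivo (log2 fold change −0.42 ± 0.36). The giant ubiquitin ligase gene Birc6 had −0.24 ± 0.33 and Birc3 0.84 ± 1.27. Naip2 and Naip6 had 0 counts in all libraries.

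Diablo, the antagonist of Xiap, spans 123511330 to 123524164 on chromosome 5, minus strand. It had 121, 378 and 223 counts in vitro and 608, 765 and 298 counts in vivo, which are 21.3, 27.8 and 29.1 CPM in vitro and 47.7, 61.3 and 21.4 CPM in vivo. In vivo replicates 1 and 2 were above all in vitro libraries, and in vivo replicate 3 was among them, so the groups overlapped. The difference on the log2 scale was −0.74 ± 0.46 (adjusted p = 0.620, edgeR). Without in vivo replicate 3 it was −1.06 ± 0.36 (adjusted p = 0.280, edgeR, and 0.127, DESeq2). Its exons share 553 of 1939 bases with B3gnt4 on the other strand, which had 0 counts in vitro and 0 to 3 in vivo. Reads in the shared bases cannot be assigned without strand, and their part in the Diablo counts was not tested. The level of Diablo per length is understated if such reads were left uncounted. The log2 ratio of Xiap to Diablo CPM was 2.16, 1.82 and 1.12 in vitro and 0.61, 0.23 and 1.74 in vivo. In vivo replicate 3 again lay among the in vitro libraries, and the mean was 1.70 ± 0.53 in vitro and 0.86 ± 0.79 in vivo (SD, n = 3 each).

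**Figure D3:**
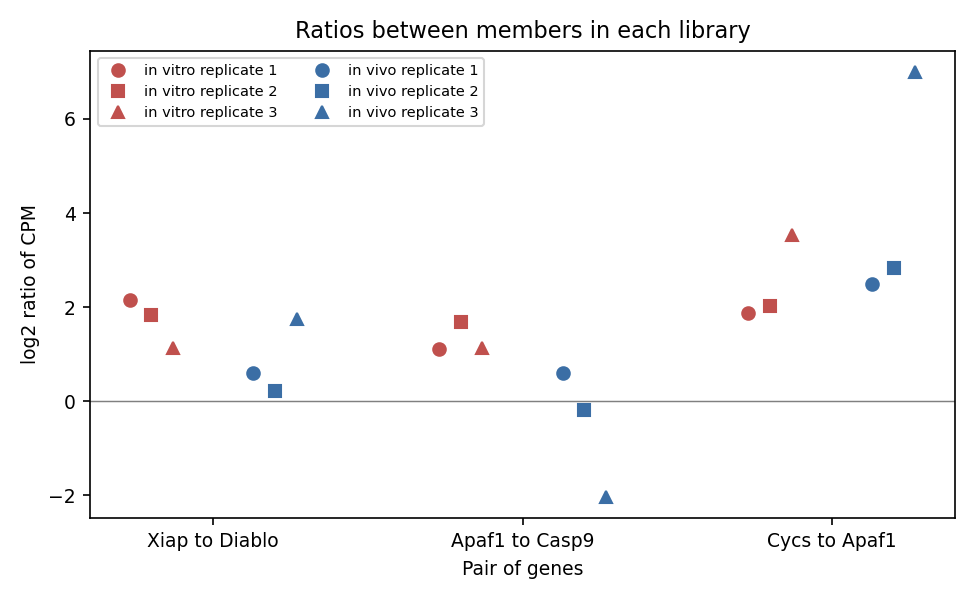
Log2 ratio of CPM between 3 pairs of members in each in vitro library (red) and in vivo library (blue). Apaf1 to Casp9 is higher in each in vitro library (1.11 to 1.69) than in any in vivo library (−2.03 to 0.60), while the ratios of Xiap to Diablo and of Cycs to Apaf1 overlap.

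Of the other mitochondrial antagonists, the protease gene Htra2 had 0, 20 and 0 counts in vitro and 98, 113 and 52 counts in vivo, or 0, 1.47 and 0 CPM in vitro and 7.69, 9.06 and 3.74 CPM in vivo. Each in vitro library was below each in vivo library (edgeR unadjusted p = 0.0476, adjusted p = 0.485; DESeq2 adjusted p 0.117, and 0.00105 without in vitro replicate 2, which held the 20 counts). The log2 fold change of −3.66 ± 1.602 depends on the prior count of the fit. Xaf1, an Xiap-associated factor, had 0.11 ± 0.51, and Arel1, a ubiquitin ligase for such antagonists, had 0.21 ± 0.93. Septin4 was too low to be tested.

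The other genes of the pathway were taken from 8 lists of 62 symbols, of which 45 could be tested. By edgeR 0 of the 45 passed, and 7 had an unadjusted p below 0.05, a level met by 10.2% of all genes tested. Positive log2 fold changes numbered 27 and negative ones 18, with a median of 0.11 and a median over all genes of −0.0058. The groups did not overlap in 10 of the 45, 6 higher and 4 lower in vitro, against 19.3% of all genes tested. DESeq2 called 1 of the 45, Opa1, against 2.61% of the genes that both tools tested, and limma-voom 1, Ptma, against 0.713% of all.

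Genes that supply and release cytochrome c had 7 positive and 3 negative log2 fold changes of 10 tested, with a median of 0.69. Opa1, a GTPase that keeps the cristae closed around cytochrome c, was at 31.4, 20.4 and 33.3 CPM in vitro and 10.98, 6.25 and 6.33 CPM in vivo. Its log2 fold change was 1.85 ± 0.51 (adjusted p = 0.342 by edgeR and 0.0176 by DESeq2), and each in vitro library was higher. The DESeq2 call held without in vivo replicate 1, in vivo replicate 3 or in vitro replicate 2 and was lost without each of the other libraries. Vdac2, an outer membrane channel, was at 171, 127 and 214 CPM in vitro and 109, 84.4 and 91.0 CPM in vivo (0.85 ± 0.32, adjusted p = 0.425, edgeR). Cyct, the cytochrome c of testis, was at 29.2, 17.3 and 25.6 CPM in vitro and 10.2, 5.21 and 20.1 CPM in vivo (1.02 ± 0.59). Bax, a pore protein of the outer membrane, was at 37.6, 37.5 and 37.1 CPM in vitro and 66.7, 72.2 and 5.97 CPM in vivo, so in vivo replicate 3 was again the lowest.

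Of the 6 apoptosome regulators, 5 were positive and 1 negative, with a median of 0.32. Ptma, which encodes prothymosin alpha, an inhibitor of apoptosome formation in cell extracts, was at 2529, 1736 and 1942 CPM in vitro and at 665, 891 and 1408 CPM in vivo (log2 fold change 1.07 ± 0.35). All in vitro libraries were above all in vivo libraries, with adjusted p-values of 0.398 by edgeR, 0.158 by DESeq2 and 0.0423 by limma-voom. The exportin gene Cse1l had 0.60 ± 0.36 and the Apaf1 interactor gene Apip 0.86 ± 0.74.

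Of the 13 tested genes of caspase substrates and executors, 7 were positive and 6 negative, with a median of 0.02. Lmnb2, a lamin, was at 12.5, 16.1 and 22.1 CPM in vitro and 7.69, 3.85 and 2.80 CPM in vivo (1.82 ± 0.66, adjusted p = 0.417, edgeR). Acin1, a chromatin condensation factor, was at 65.0, 47.6 and 31.4 CPM in vitro and 14.8, 18.4 and 27.8 CPM in vivo (1.24 ± 0.44, adjusted p = 0.415). The kinase gene Pak2 had 0.96 ± 0.42 (adjusted p = 0.482) and overlapped. Genes with lower values in each in vitro library were Aifm1, apoptosis inducing factor, Parp1, a DNA repair enzyme cut by caspases, and Xkr8, a lipid scramblase, at −0.80 ± 0.49, −0.51 ± 0.29 and −1.49 ± 0.84. These 3, and Bax, Cflar and Tnfrsf10b above, were named after their values were seen.

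**Figure D4:**
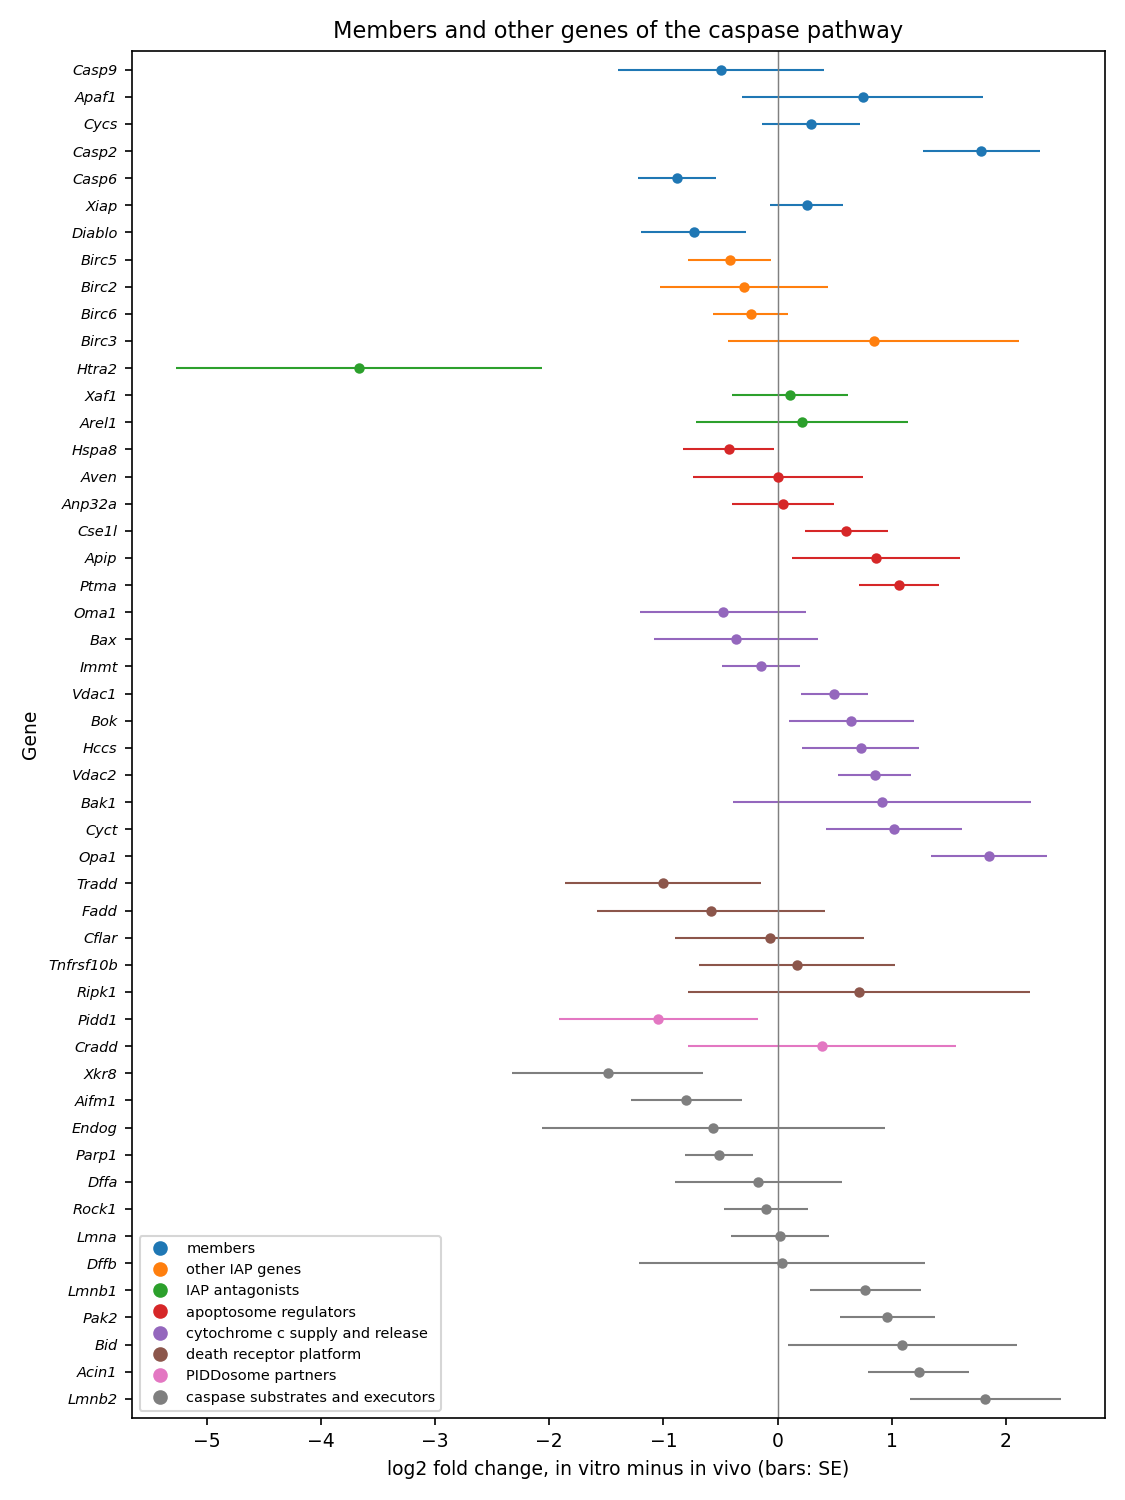
Log2 fold change (in vitro over in vivo) with its SE, of the 7 tested members and of other genes of the caspase pathway, coloured by list (the list of other caspases is not drawn). Both directions occur among the members and in most lists, from −3.66 for Htra2 to 1.85 for Opa1, and Casp2 at 1.78 is the highest of the members.

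In vivo replicate 3 was the lowest library for 4 of the 7 tested members (Casp9, Apaf1, Cycs and Casp2) and for 13 of the 45 pathway genes, against 25.8% of all genes tested. Leaving it out moved the log2 fold changes of Apaf1, Casp9, Cycs and Diablo, while Casp2 (1.68 ± 0.54), Casp6 (−0.78 ± 0.35) and Xiap (0.26 ± 0.33) stayed close to their values.

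**Figure D5:**
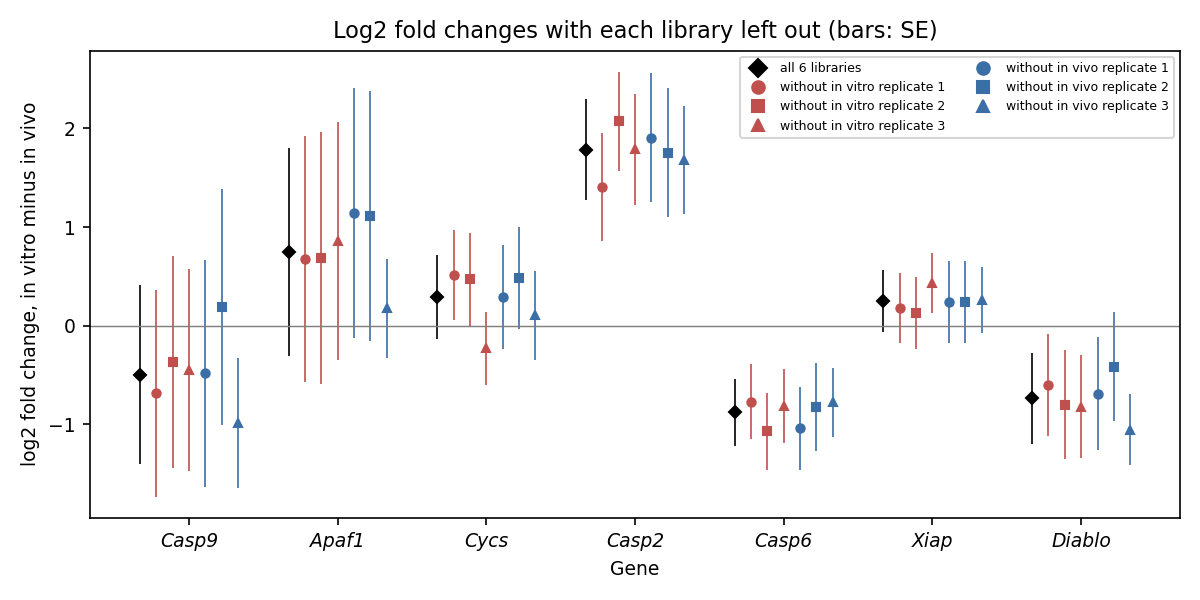
Log2 fold change (in vitro over in vivo) with its SE by edgeR, of each tested member with all 6 libraries (black) and without each library in turn (red without an in vitro library, blue without an in vivo library). Casp2 stays between 1.41 and 2.07 and Casp6 between −1.07 and −0.77, whereas Casp9 and Cycs change sign.

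The likeness of profiles over the 6 libraries differed among the members. It was the root mean square difference of log2 CPM after centring each gene, over the 6 libraries and about 6551 genes with a mean of at least 10 CPM and an assigned symbol. The nearest members were Casp6 and Diablo, which differed by 0.57, and 22.1% of the genes were nearer to Casp6 and 14.5% nearer to Diablo. The nearest member to Casp2 was Xiap at 0.89, with 30.5% of the genes nearer. For Casp9 it was Diablo at 0.66, with 4.14% of the genes nearer, and for Apaf1 it was Casp9 at 1.22, with 4.53% nearer. Cycs had Diablo at 0.57 (23.4% nearer) and Xiap had Casp6 at 0.61 (47.4% nearer). The nearest member is the smallest of several differences, so shares below the median gene do not show that the members are alike. The gene nearest to Casp2 was Aldh4a1, a mitochondrial enzyme of proline breakdown (0.21), and the one nearest to Casp6 was Ndufaf8, a complex I assembly factor (0.10). Bcl10, an adaptor of NF-kB signalling, was nearest to Apaf1 (0.18), and was at 27.9, 22.8 and 24.3 CPM in vitro and 21.9, 26.1 and 0.647 CPM in vivo. As3mt was nearest to Casp9 (0.21), Wdr70 to Cycs (0.10), Atxn2l to Xiap (0.053) and Gnl2 to Diablo (0.12).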

How the data were processed

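The deposited table holds the authors' unnormalised read counts, with gene lengths, for 3 in vitro and 3 in vivo libraries, grouped here by title. Per the submitters' processing notes, FastQC 0.11.2 and DESeq2 were used on GRCm39, but the members' coordinates equal those of GRCm38.p6 genes in RefSeq (8 of 8). Not given in the sources used here were the aligner, the counter and its strand setting, and the library kit named in the labels' protocols does not mark strand.

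Counts were tested with edgeR 4.0.16 in R 4.3.3: filter by group (14301 genes), TMM scaling, robust dispersions (common coefficient of variation 0.727), and edgeR's quasi-likelihood test (legacy form, both directions), adjusted over all genes tested at 0.05. SE values come from the F statistic. DESeq2 1.42.0 and limma 3.58.1 were run beside it. Scripts were tested on simulated data. No 2 libraries were copies of each other (lowest chi-square per degree of freedom 31.5). Intervals and floors (3 counts) cover counting error only, since PCR copies cannot be told from molecules. The replicate numbers were not taken as pairs, and whether libraries of equal number shared a batch was not settled.

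The members, lists, motifs and tests were chosen with earlier results of these data known. Named were all members, up to 3 genes of smallest p per list, genes too low to test, and the gene nearest to each member. The text marks genes named otherwise. Some genes of the lists enter the counts and medians but are not reported here by name.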

Additional observations from a re-analysis of the deposited data

How the results depend on the processing

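The count of genes called was 0 by edgeR and 391 without a filter on low counts, 459 by DESeq2, 102 by limma-voom with quality weights and 3 with edgeR's newer form. With each library left out in turn it was 0 throughout by edgeR, and by DESeq2 255, 855 and 373 without in vitro replicates 1, 2 and 3 and 294, 152 and 907 without in vivo replicates 1, 2 and 3. The counts of members and of pathway genes called were then 0 to 1 and 0 to 3. DESeq2 called 1 member and 1 pathway gene with all libraries, and limma-voom 1 pathway gene. Scaling by library totals alone left 2 members with a positive log2 fold change, made Cycs −0.12 and Xiap −0.049, and moved the median of the pathway genes to −0.18. That scaling moved the median of all genes by itself (−0.31, with 36.1% positive against 49.8%). Limma-voom gave −0.11 for Cycs and −0.071 for the pathway median. With libraries left out, that median was 0.033 to 0.51 (0.30 by edgeR and 0.35 by DESeq2 without in vivo replicate 2). Casp9 was −0.98 to 0.19 by edgeR and −0.99 to 0.21 by DESeq2, and Cycs −0.23 to 0.52 by edgeR and −0.22 to 0.53 by DESeq2. Casp2, Casp6, Apaf1 and Diablo kept their direction in all 23 alternatives, and the causes of the other moves were not tested. Among these alternatives, the threshold of 0.1 and edgeR without robust moderation left the log2 fold changes of the members as they were. With the replicate number as a block, edgeR called 0 genes, and Casp2 was 1.69, Apaf1 1.59 (0.74 without it) and Casp9 −0.037 (−0.49 without it). The correlations of deviations between libraries of the same number were −0.099, 0.096 and −0.044, and the numbers are not taken as pairs. With 3 libraries per group, these values do not settle whether equal numbers were paired. Counts that are low or 0 limit what can be said of Casp8, Htra2 and the genes too low to test.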
